A study of Mus musculus with 16 samples.

Results

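The miRNAs miR-335, miR-483 and miR-675 are cut from the transcripts of Mest, Igf2 and H19, genes at imprinted loci that control growth. The arrays carried 6 mouse miRNA names from these loci: mmu-miR-335-5p, mmu-miR-335-3p, mmu-miR-483, mmu-miR-483*, mmu-miR-675-3p and mmu-miR-675-5p. They were taken by name from the scanner files, with all of their probes, and are 6 of the 650 miRNA names on the array, of which 39 are viral. Together they have 20 of the 1857 probes. RNA of the sciatic nerve, the large nerve of the hind limb, came from mice of 2 genotypes that the labels call fl (Dicer fl/fl Dhh-Cre+, the mutants) and wt (Dicer wt/fl Dhh-Cre+, the controls). Nerves were taken on embryonic day 17 (E17) or postnatal day 4 (P4), and each of the 4 groups held 4 mice, each on a single-colour Agilent array of its own. Mutants and controls were offspring of Dicer wt/flox mice with Dhh-Cre crossed to Dicer flox/flox mice (strain Dicer1tm1Bdh/J), so all 4 groups carried Dhh-Cre and at least 1 floxed Dicer1 allele, and the controls were heterozygous. Males and females were present in every group. The Dhh (desert hedgehog) promoter drives Cre in Schwann cells, whereas the RNA came from whole nerve, which also holds axons, fibroblasts, vessels and blood. In such RNA, fewer cells of a type and less RNA per cell cannot be told apart. The arrays measure no mRNA, so neither Dicer nor the hosts Mest, Igf2 and H19 were measured here. All arrays of E17 lay on 1 slide and all arrays of P4 on another, with both genotypes on each, so age and slide cannot be told apart.

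Dicer is the enzyme that cuts hairpin precursors into mature miRNAs, and either arm of the hairpin (5p or 3p) can give a mature strand. A mature miRNA recognizes its target mRNAs mainly through its seed, bases 2 to 8 counted from the 5′ end. Imprinted genes are expressed from a single parental allele. Mest and Igf2 are expressed from the paternal copy and H19 from the maternal copy, and all of them are strongly expressed in mesodermal tissues of the embryo and fall after birth. miR-335 lies in an intron of Mest, miR-483 lies in an intron of Igf2, which encodes a fetal growth factor, and miR-675 lies in an exon of H19, a long non-coding RNA. miR-675 is known to restrain placental growth, miR-483 is known for its high level in Wilms' tumour, and miR-335 has been studied as a suppressor of metastasis.

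To compare the seeds of the arms, the mature sequences are given 5′ to 3′ as in RefSeq for build GRCm38.p6, with the seed in capitals. Targets were not searched. On that build the hairpin of miR-335 lies at chr6:30741299-30741396 on the + strand inside Mest. The hairpins of miR-675 and miR-483 lie on the - strand at chr7:142577064-142577147 inside H19 and at chr7:142654924-142654996 inside Igf2. Of the 6 array names, 4 were found by exact name. The table names the arms of miR-483 as 5p and 3p, whereas the array uses the older names miR-483 and miR-483*, and the files do not pair them.
mmu-miR-335-5p: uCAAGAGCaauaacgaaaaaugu
mmu-miR-335-3p: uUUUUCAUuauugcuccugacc
mmu-miR-675-5p: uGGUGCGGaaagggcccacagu
mmu-miR-675-3p: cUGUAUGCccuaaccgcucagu
mmu-miR-483-5p: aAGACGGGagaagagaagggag
mmu-miR-483-3p: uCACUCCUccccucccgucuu

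The 6 seeds are all different, and none of them is shared with another mature mouse miRNA of the table. The longest stretch that any of these sequences has in common with another mature miRNA is 8 to 10 bases. The 5p arm of miR-335 is rich in A and U, with 30.4% G and C, against 63.6% in the 5p arm of miR-675.

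The 6 miRNAs differed in how far they rose above the background of the array. Each has 20 spots, divided over 2 probes (miR-335-5p and miR-483*) or 4 probes (the others). miR-335-5p, miR-483* and miR-675-3p were detected by the scanner software on all 16 arrays and miR-483 on 15, with 1 of the P4 controls missing. miR-335-3p was detected on 6 arrays, and none of its 4 probes was well above background on any array. miR-675-5p was detected on 0 of 16 arrays. A miRNA entered the tests where it was detected on at least 2 of the 4 arrays of any group, which left 5 of the 6 miRNAs with 16 probes, among 681 probes of 281 miRNAs. miR-335-3p passed with 2 detected arrays in each group but the P4 controls, where it was detected on 0. Its 4 probes are included in the counts below, but no difference is given for it because every level lies in the background.

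miR-335-5p was higher in mutant nerves than in control nerves at both ages, by a factor of about 1.5 on the normalized scale. The values are log2 median spot signals made equal in distribution across the arrays (quantile normalization) and averaged per probe, and each miRNA is given by its brightest probe. In the 4 P4 controls miR-335-5p reached a normalized log2 signal of 7.62, 7.68, 7.49 and 7.75, and in the 4 P4 mutants 8.30, 8.41, 8.01 and 8.27. In the 4 E17 controls the values were 7.75, 7.80, 7.69 and 8.13, and in the 4 E17 mutants 8.36, 8.51, 8.54 and 8.49. At each age every mutant lay above every control, and the E17 control closest to the mutants was replicate 4. At P4 the means were 8.25 ± 0.17 in mutants and 7.64 ± 0.11 in controls (SD, n = 4), a log2 difference of 0.61 (SE 0.0982, 95% interval 0.40 to 0.82, limma adjusted p = 0.000183). At E17 the means were 8.47 ± 0.08 and 7.84 ± 0.20 (SD, n = 4), a log2 difference of 0.63 (SE 0.0982, 95% interval 0.42 to 0.84, limma adjusted p = 0.00171). A probe was called where its adjusted p over the 681 probes was at most 0.05 and its log2 difference at least 0.5 in size, and both differences were called. Ranked from the highest of the 681 differences, miR-335-5p stood at 35 at P4 and at 7 at E17. Background is part of these signals, which makes the log2 differences smaller, and more so for dim probes.

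The second probe of miR-335-5p was dimmer and moved less. Its log2 difference was 0.17 at P4 (limma adjusted p = 0.0143) and 0.14 at E17 (limma adjusted p = 0.0932), so neither was called. Its group means lay between 6.26 and 6.47, and it was well above background on 1 of 4 arrays in each E17 group and on 3 of 4 in each P4 group.

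**Figure D1:**
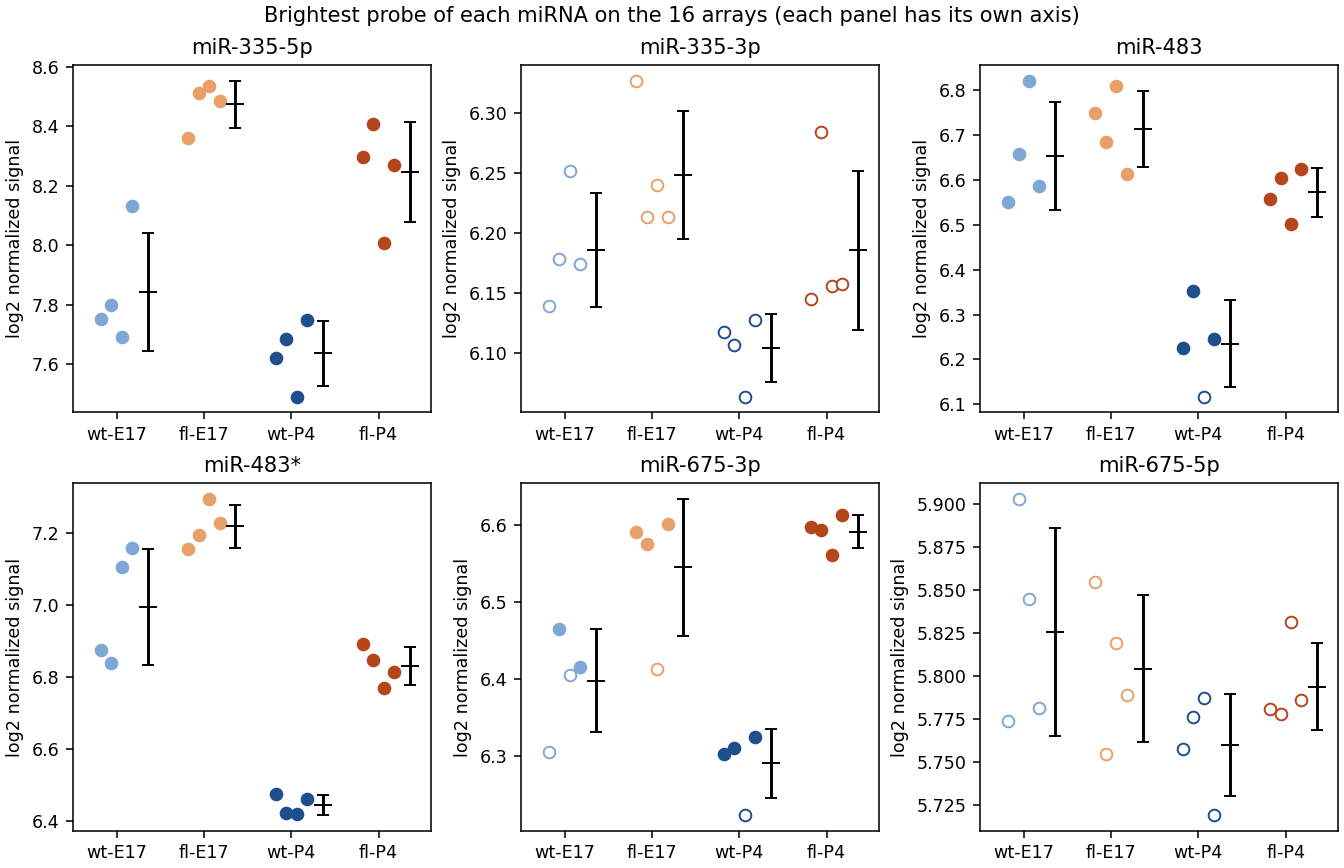
Normalized log2 signal of the brightest probe of each miRNA on every array, in control (wt) and mutant (fl) nerves at E17 and P4, with the mean and SD of the 4 arrays as a bar beside the points. Filled points are well above background and open points are not, and each panel has its own axis. The mutant and control arrays of miR-335-5p do not overlap at either age, and all points of miR-335-3p and miR-675-5p are open.

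On the normalized scale the miRNAs from the Igf2 and H19 loci were also higher in mutants at P4, but by less than the limit of 0.5. miR-483* had a normalized log2 signal of 6.47, 6.42, 6.42 and 6.46 in the P4 controls and of 6.89, 6.85, 6.77 and 6.81 in the P4 mutants. The log2 difference was 0.38 (95% interval 0.25 to 0.52, limma adjusted p = 0.000184), and the arrays of the groups did not overlap. Its second probe gave 0.15 (limma adjusted p = 0.0713). miR-483, from the other arm of the same hairpin, stood at 6.23, 6.35, 6.12 and 6.25 in the P4 controls, on 3 of which it was well above background, and at 6.56, 6.60, 6.50 and 6.62 in the P4 mutants. Its log2 difference was 0.34 (95% interval 0.20 to 0.47, limma adjusted p = 0.000553), again with no overlap. The 3 dimmer probes of miR-483 gave 0.23 (limma adjusted p = 0.0128), 0.10 and 0.06 (limma adjusted p = 0.186 and 0.27). The mean over all probes was 0.27 for miR-483* and 0.18 for miR-483 (limma adjusted p = 0.000666 and 0.0103).

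miR-675-3p, the detected arm of the H19 hairpin, had a normalized log2 signal of 6.30, 6.31, 6.22 and 6.32 in the P4 controls and of 6.60, 6.59, 6.56 and 6.61 in the P4 mutants. It was well above background on 3 of 4 controls and on all 4 mutants. The log2 difference was 0.30 (95% interval 0.21 to 0.40, limma adjusted p = 7.9e-05), and the next probe of the same miRNA gave 0.31 (limma adjusted p = 2.8e-05). The groups did not overlap on either probe. The remaining 2 probes of miR-675-3p were never well above background. miR-675-5p, the other arm, remained at the background in every group, with log2 signals from 5.72 to 5.90 and background-subtracted signals below 0.

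At E17 these miRNAs differed less between the genotypes on the normalized scale. miR-483* was at 6.88, 6.84, 7.10 and 7.16 in controls and at 7.15, 7.19, 7.29 and 7.23 in mutants, a log2 difference of 0.22 (limma adjusted p = 0.0367) with overlapping arrays. miR-675-3p was at 6.30, 6.46, 6.40 and 6.42 in controls and at 6.59, 6.57, 6.41 and 6.60 in mutants, a log2 difference of 0.15 (limma adjusted p = 0.0466), again with overlap. It was well above background on 2 of the 4 controls and 3 of the 4 mutants. miR-483 was at 6.55, 6.66, 6.82 and 6.59 in controls and at 6.75, 6.68, 6.81 and 6.61 in mutants. The difference of 0.06 on the log2 scale (95% interval -0.08 to 0.20, limma adjusted p = 0.601) was within the spread between arrays. No normalized E17 difference of these 3 miRNAs reached the limit of 0.5. Without normalization the E17 differences were 0.22 for miR-483, 0.29 for miR-483* and 0.34 for miR-675-3p (limma adjusted p = 0.311, 0.24 and 0.238). On that scale they were larger than at P4 (0.17, 0.14 and 0.11), and none was called at either age.

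Whether the effect of the mutation differed between the ages was tested as the difference of the genotype differences, P4 minus E17. For miR-335-5p it was -0.02 on the log2 scale (95% interval -0.32 to 0.28, limma adjusted p = 0.949), so the interval leaves room for an effect up to 0.32 smaller or 0.28 larger at P4. For miR-483 it was 0.28 (95% interval 0.09 to 0.47, limma adjusted p = 0.0529), for miR-483* 0.16 (limma adjusted p = 0.255) and for miR-675-3p 0.15 (limma adjusted p = 0.118). None was called.

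With age, miR-483* was lower at P4 in control nerves on the normalized scale. Its mean normalized log2 signal went from 6.99 ± 0.16 at E17 to 6.45 ± 0.03 at P4 (SD, n = 4), a difference of -0.55 (95% interval -0.68 to -0.41, limma adjusted p = 8.4e-06) that was called, and no P4 control reached the lowest E17 control. Without replicate 4 of the E17 controls the difference was -0.49 (limma adjusted p = 2.5e-05), under the limit. Without normalization it was -0.01 (95% interval -0.35 to 0.33, limma adjusted p = 0.947), and it was also under the limit with the 75th percentile of all probes (-0.38), with normexp background correction (-0.38) and as the mean over both probes (-0.37). In mutants miR-483* went from 7.22 ± 0.06 to 6.83 ± 0.05 (SD, n = 4), a difference of -0.39 (limma adjusted p = 0.000365) that did not overlap but stayed under the limit. For miR-483 the difference in controls was -0.42 (95% interval -0.55 to -0.28, limma adjusted p = 0.00013) with no overlap, again under the limit, and the difference in mutants was -0.14 (limma adjusted p = 0.119). The age differences in controls and the genotype differences at P4 use the same P4 control arrays.

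miR-335-5p and miR-675-3p differed little with age on the normalized scale. For miR-335-5p the difference from E17 to P4 was -0.21 in controls (limma adjusted p = 0.112) and -0.23 in mutants (limma adjusted p = 0.106), with overlapping arrays in both. The order of its group means was therefore E17 mutants, P4 mutants, E17 controls and P4 controls, and each group overlapped with the next in that order. For miR-675-3p the difference was -0.11 in controls (limma adjusted p = 0.0658) and 0.05 in mutants (limma adjusted p = 0.496).

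**Figure D2:**
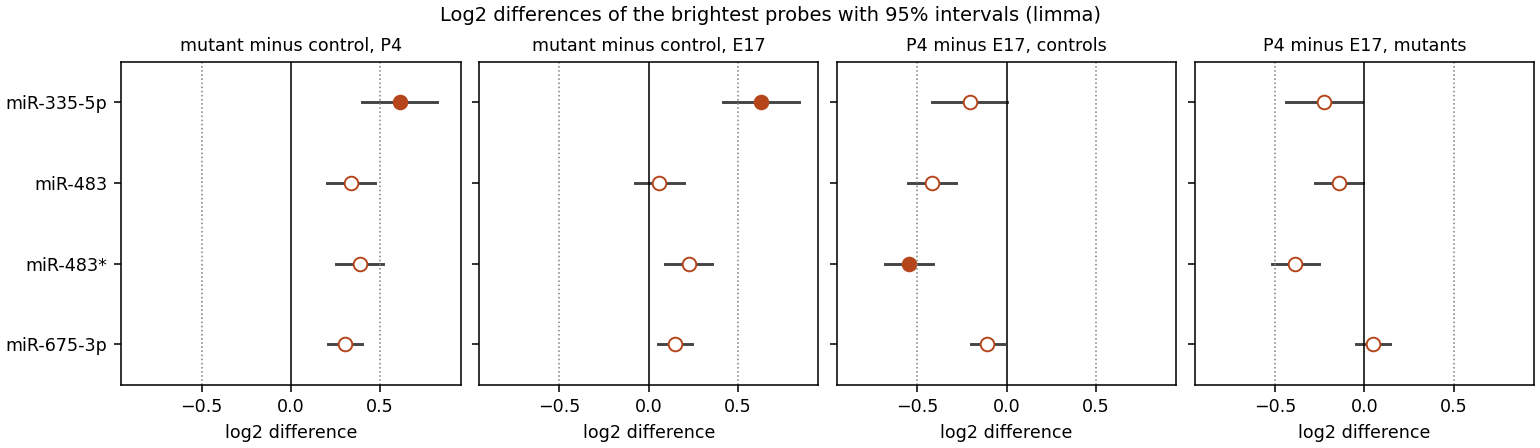
Log2 differences of the brightest probe of the 4 miRNAs that rose above background, in the 4 comparisons, with 95% intervals from limma. Filled points are called, open points are not, and dotted lines mark the limit of 0.5 in either direction. miR-335-5p lies past the limit in mutants at both ages (0.61 and 0.63), and miR-483* lies past it between P4 and E17 in controls (-0.55).

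Few probes of the members were called. At P4, 1 of the 16 member probes was called between the genotypes, the brightest probe of miR-335-5p, against 14.5% of the 681 probes. At E17 it was again 1 of 16, the same probe, against 2.79%. Between the ages, 1 of 16 was called in controls (12.8% of all probes) and 0 of 16 in mutants (7.05%), and for the difference of the genotype differences 0 of 16 (6.61%). By the brightest probe, 1 of the 5 tested miRNAs was called at each age, against 21% of the 281 miRNAs at P4 and 3.91% at E17. Without the limit of 0.5, limma called 8 member probes at P4 and 4 at E17. It called 6 with age in controls, 1 with age in mutants and 0 for the difference of the genotype differences. Of all 681 probes, 148 were then called higher and 150 lower at P4. The other comparisons had 70, 274, 193 and 100 of 681, in the same order. The 8 at P4 included a probe of miR-335-3p, which lies in the background. The 6 with age in controls were the probes of miR-483 and miR-483*. At an unadjusted limma p under 0.05 the member counts were 11, 6, 8, 4 and 5 of 16, in the order of the comparisons above. No count over all probes stands beside them, so they were not read as a result about the members.

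In each comparison the member probes without overlap ran one way. Only between the genotypes at P4 were they well above the share of all probes. At P4 the mutant and control arrays did not overlap for 11 of the 16 member probes, all higher in mutants, against 39.1% of all probes. These 11 came from all 5 tested miRNAs, and 3 of them belonged to miR-335-3p, which lies in the background. The median difference of the 16 probes was 0.12, against 0.02 over all 681. At E17 it was 2 of 16, both higher in mutants and 1 of them of miR-335-3p, against 20.7%, with medians of 0.06 and -0.002. With age it was 7 of 16 in controls, all lower at P4, against 37.6%, and 3 of 16 in mutants, also lower, against 25.7%. Those in controls were every probe of miR-483 and miR-483* and a probe of miR-335-3p. Those in mutants were both probes of miR-483* and a probe of miR-675-3p that was never well above background. Probes of 1 miRNA bind the same RNA and are not independent.

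The normalized differences rest on the scaling, and mutant nerves gave less miRNA signal in all at P4. The background-subtracted signal of all miRNAs summed to between 122860 and 154076 intensity units in the P4 controls and to between 56841 and 83630 in the P4 mutants, 51.3% of the control level as a ratio of geometric means (exact two-sided permutation test, p = 0.0286, the smallest p that 4 against 4 arrays can give). At E17 the sums were 36495 to 60374 in controls and 39097 to 50827 in mutants, or 88.7% (exact permutation test, p = 0.4). Between 197 and 260 miRNAs were detected per array. Before normalization, the background-subtracted signal of miR-335-5p was 159.9, 212.9, 164.0 and 169.4 intensity units in the P4 controls and 163.2, 243.1, 144.4 and 183.4 in the P4 mutants. These values overlapped, with a ratio of 1.03 (exact permutation test, p = 0.857).

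As a share of the summed signal, miR-335-5p took 0.124%, 0.138%, 0.124% and 0.138% in the P4 controls and 0.251%, 0.291%, 0.254% and 0.254% in the P4 mutants. That was 2.00-fold more without overlap (exact permutation test, p = 0.0286, adjusted p = 0.04 over 14 tests of shares). At P4, therefore, a signal of miR-335-5p with no difference that the arrays could resolve stood in a smaller sum. At E17 the signal itself was higher in mutants, at 104.9, 160.1, 142.1 and 125.7 units against 81.6, 85.5, 55.8 and 149.2 in controls. This 1.51-fold ratio was within the overlap of the groups (exact permutation test, p = 0.114), and the share was 1.70-fold higher without overlap (exact permutation test, p = 0.0286, adjusted p = 0.04).

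Before normalization the miRNAs from the Igf2 and H19 loci also had higher mean signals in P4 mutants, with an adjusted p above 0.05 where tested. By limma without normalization the log2 differences at P4 were 0.17 for miR-483 (95% interval -0.17 to 0.51), 0.14 for miR-483* (-0.20 to 0.49) and 0.11 for miR-675-3p (-0.22 to 0.45). The limma adjusted p values were 0.732, 0.831 and 0.95. The background-subtracted signal of miR-483* was 38.2, 40.3, 36.8 and 33.3 units in the P4 controls and 49.7, 48.9, 43.2 and 44.4 in the P4 mutants, a 1.253-fold difference with no overlap (exact permutation test, p = 0.0286, adjusted p = 0.16 over 14 tests of signals). Its share of the sum was 2.44-fold higher (exact permutation test, p = 0.0286, adjusted p = 0.04). For miR-675-3p the signals were 14.999, 20.3, 13.9 and 15.2 units in the P4 controls and 23.1, 27.9, 19.2 and 24.0 in the P4 mutants. The ratio was 1.47 (exact permutation test, p = 0.0571, adjusted p = 0.16), and only the lowest mutant lay below the highest control. Its share was 2.86-fold higher (exact permutation test, p = 0.0286, adjusted p = 0.04). Because the sum in P4 mutants was 51.3% of the control level, a share could rise without a rise in signal. The share tests of miR-483* and miR-675-3p at P4 therefore in part repeat the test of the sum. At E17 the share of miR-675-3p was 1.62-fold higher in mutants (exact permutation test, p = 0.0286, adjusted p = 0.04). Its signal ratio there was 1.435 (exact permutation test, p = 0.171). miR-483 was not tested on this scale in the comparisons with the P4 controls, because it was not detected on 1 of them. Its signals were 13.8, 29.8, 5.35 and 10.1 units in the P4 controls and 23.8, 22.4, 15.95 and 26.4 in the P4 mutants, and they overlapped. Of the 14 unnormalized comparisons of signals, 2 reached the smallest possible exact permutation p of 0.0286 and none passed 0.05 after adjustment. With 14 tests and this smallest p, a comparison could pass only if several others also reached it, whatever its size. An adjusted p above 0.05 here therefore does not show that a difference is absent. The adjusted p of the shares likewise depends on how many tests reached the smallest p.

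With age the direction itself turned on the scale. The signal of miR-335-5p was 2.01-fold higher at P4 than at E17 in controls, with no overlap (exact permutation test, p = 0.0286, adjusted p = 0.16), while its share of the sum was 0.728-fold (exact permutation test, p = 0.0286, adjusted p = 0.04), since the sum reached 276% of its E17 level (exact permutation test, p = 0.0286). Its unnormalized log2 difference by limma was 0.83 (95% interval 0.46 to 1.19, limma adjusted p = 8.6e-05), where the median of the 681 probes was 0.42. For miR-483* the signal ratio in controls was 0.818 (exact permutation test, p = 0.314) and the share ratio 0.297 (exact permutation test, p = 0.0286, adjusted p = 0.04), so both lay below 1. miR-675-3p had a signal ratio of 1.34 (exact permutation test, p = 0.229) and a share ratio of 0.485 (exact permutation test, p = 0.0286, adjusted p = 0.04).

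**Figure D3:**
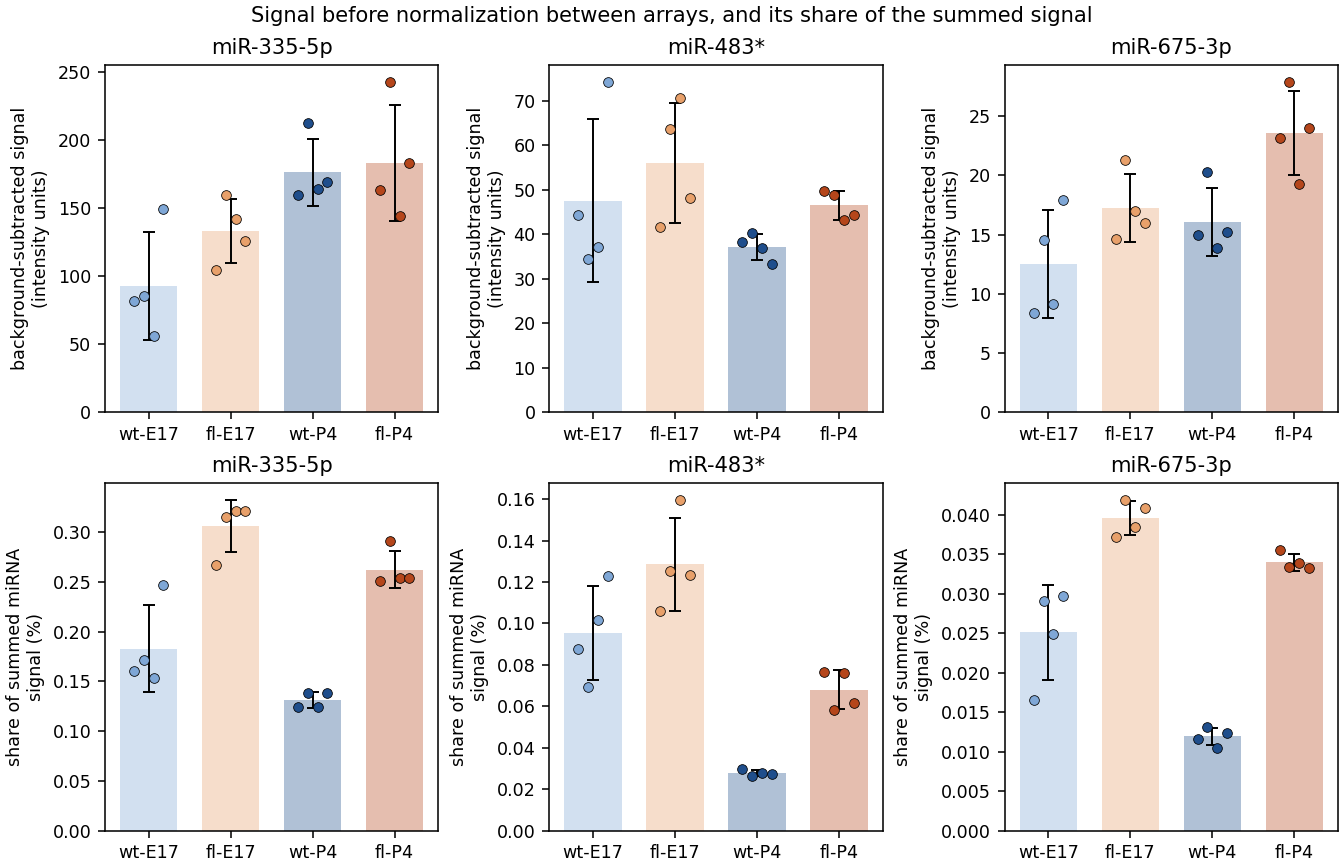
Background-subtracted signal in intensity units without normalization between arrays (upper row) and its share of the summed miRNA signal in percent (lower row) for 3 miRNAs, with a point per array and the mean and SD of 4 arrays as bars. At P4 the signals of miR-335-5p overlap between the genotypes while its shares do not, and those of miR-483* do not overlap in either row.

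Under other scalings the difference of miR-335-5p ranged at P4 from none that could be resolved to more than the reported one, and the median of all probes moved as well. Without normalization the log2 difference at P4 was 0.01 (95% interval -0.35 to 0.37, limma adjusted p = 0.999), where the median of the 681 probes was -0.09. With each array set to its 75th percentile over probes detected everywhere, it was 0.90 with a median of 0.79, and with background-subtracted signals scaled in that way 1.01 with a median of 0.28. With the 75th percentile of all probes it was 0.12 (limma adjusted p = 0.579) with a median of 0.02. The P4 differences of miR-483, miR-483* and miR-675-3p moved with the scaling too. They were 1.05, 1.03 and 1.00 with the 75th percentile of detected probes. With background-subtracted signals they were 1.67, 1.35 and 1.44. All of these were called and lay above those of miR-335-5p. With the 75th percentile of all probes they were 0.28, 0.26 and 0.22, not called. The split of called probes moved with the scaling too, from 45 higher and 54 lower in mutants at P4 to 1 and 156 without normalization, to 530 calls of which 37 were lower with the 75th percentile of detected probes, to 225 and 95 with background-subtracted signals, and to 2 and 131 with that of all probes. At E17 the difference of miR-335-5p was 0.51 without normalization (95% interval 0.15 to 0.87, limma adjusted p = 0.143), 0.64 with the 75th percentile of detected probes, 0.82 with background-subtracted signals and 0.24 with the 75th percentile of all probes (limma adjusted p = 0.447), beside medians of 0.25, 0.38, 0.03 and -0.02. The probes called at E17 went from 10 higher and 9 lower to 3 and 8, 34 and 9, 57 and 29, and 0 and 31, in the same order.

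**Figure D4:**
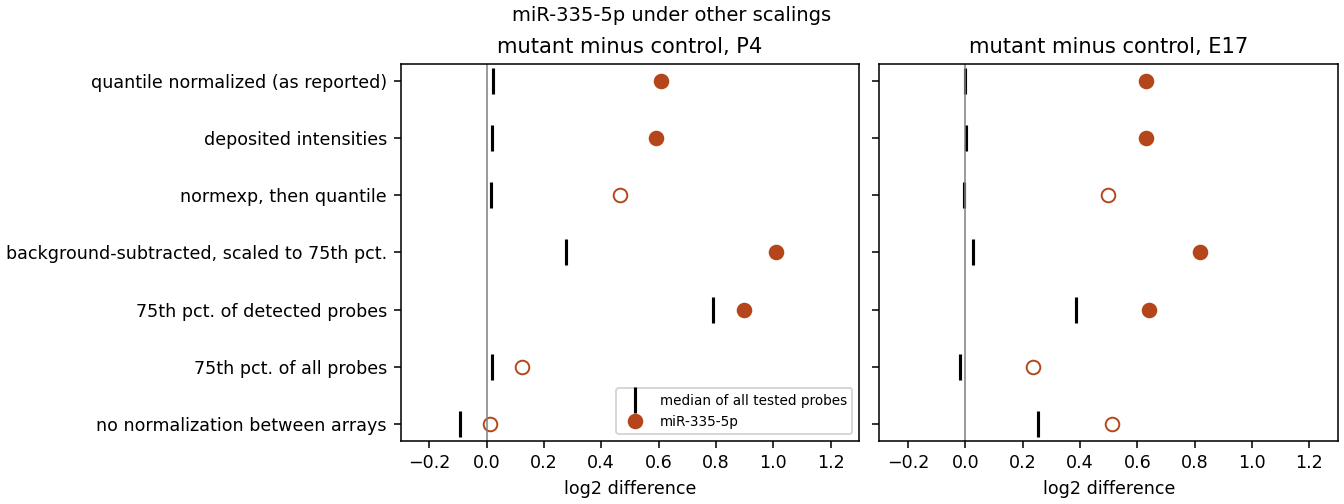
Log2 difference of miR-335-5p between mutants and controls (circles, filled where called) beside the median difference of all 681 tested probes (bars), under 7 scalings at P4 and E17. All circles lie to the right of their bars, and they are filled in 4 of the 7 scalings at each age.

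The expressed miRNAs most like miR-335-5p over the 16 arrays, by Pearson correlation of the brightest probes on the normalized scale, were miR-199a-5p (r = 0.93), miR-127 (0.92), miR-411* (0.91), miR-329 (0.90) and miR-300 (0.88). miR-199a-5p is known from fibroblasts and smooth muscle, and the other 4 come from the imprinted Dlk1-Dio3 cluster, a large group of maternally expressed miRNAs. These correlations describe 280 comparisons over arrays that share slides, group means and normalization. Taken as deviations from the group means, the closest were miR-376a (0.90), miR-329 (0.83), miR-148a (0.81), miR-127 (0.81) and miR-30b (0.79), so miR-127 and miR-329 stood among the closest 5 both ways. The 2 rankings differed for others. miR-30b stood at place 228 over the 16 arrays (r = -0.60) and was lower in P4 mutants (log2 difference -0.55, limma adjusted p = 7.7e-06). miR-411* and miR-300 stood at places 48 and 28 by deviations. Among the members, miR-675-3p stood at place 11 of 280 (r = 0.81), miR-483* at 28 and miR-483 at 48. By deviations from the group means they stood at place 141 (r = 0.19), 41 (0.53) and 182 (0.06). Without normalization the places over the 16 arrays were 36, 225 and 207. The 2 strands named miR-483 and miR-483* correlated with r = 0.89.

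Other imprinted miRNAs were counted for comparison. Of 75 miRNAs of the Dlk1-Dio3 cluster on the array 46 were tested, and by the brightest probe 14 were called in mutants at P4, all of them higher, with a median difference of 0.36 against 0.06 over the 281 miRNAs, of which 29 were called higher and 30 lower. At E17, 2 were called, both higher (median 0.16 against -0.004), where 6 of the 281 were called higher and 5 lower. With age in controls 7 were called, all lower at P4, where 18 of the 281 were called higher and 33 lower, 18.1% in all. Of the 3 miRNAs of the Gnas-Nespas locus 1 was tested, with a difference of 0.20 at P4 and 0.17 at E17, not called.

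Markers of cell types also moved with the genotype, and their counts of calls stand beside the same 29 higher and 30 lower of 281 miRNAs at P4 and 6 higher and 5 lower at E17. The glial miRNAs miR-338-3p and miR-338-5p were both lower in mutants at P4, and the summed signal of the 3 glial markers was 2811 to 3803 units in P4 controls and 112 to 250 in P4 mutants. At E17 neither was called, and the sums were 311.5 to 674.5 in controls and 286 to 388 in mutants. miR-219 was never detected. Of the 8 markers of fibroblasts and smooth muscle 5 were tested, of which 4 were higher in mutants at P4 and 1 at E17, with median differences of 1.09 and 0.53. Their summed signal ran from 5505 to 7541 units in P4 controls and from 5354 to 10018 in P4 mutants, and from 2301 to 4240 and 3748 to 4490 at E17. miR-145, its star strand and miR-214* were never detected. Among the others, 1 of 3 erythroid and 1 of 3 tested leukocyte markers were higher in mutants at both ages, 1 of 2 endothelial markers was higher and 2 of 5 neuronal markers were lower at P4, and no skeletal muscle marker (of 5, with a median difference of 0.69 at P4) and not the hepatocyte marker was called at either age. The summed erythroid signal was 205 to 1746 units in P4 controls and 453.4 to 1218 in P4 mutants, and 788 to 3283 and 2103 to 4787 at E17. The leukocyte sum was 228 to 342 and 280 to 417 units at P4, and 87.0 to 177 and 138 to 187 at E17. The endothelial sum was not higher in mutants at P4, at 1138 to 2381 units in controls and 927 to 1512 in mutants. The neuronal sum at P4 was 278 to 295 units in controls and 107 to 163 in mutants. The normalized log2 differences of the 5 neuronal markers at P4 ran from -0.68 to 0.31, with a median of 0.10. The part of these cell types in the differences of miR-335-5p, miR-483, miR-483* and miR-675-3p was not tested.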

How the data were processed

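Total RNA of each nerve was labeled with Cyanine 3 and hybridized to an Agilent mouse miRNA array (design 021828). The authors deposited spot intensities read by Agilent Feature Extraction 10.5.1.1, both raw and background-subtracted and not yet normalized, and a table of quantile normalized intensities with present flags, which served as an alternative. The 6 miRNAs and all lists of miRNAs were chosen with earlier results of these data known. The named miRNAs are the 6 members with every probe, and the 5 most similar to miR-335-5p by either correlation.

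The log2 median signal was quantile normalized over the 13000 spots that are not controls and averaged per probe without the spots that the scanner software marked as outliers. Group means of all 16 arrays were fitted in R 4.3.3 by lmFit and eBayes of limma 3.58.1, with Benjamini-Hochberg adjustment over 681 probes. The arrays of a group are separate mice by the study's methods, which used littermates. The methods' t-test was an alternative to limma. Background-subtracted gene signals, and their shares of the sum over all miRNAs, were tested by exact permutation, two-sided, of 8 arrays (70 assignments), for members detected on all 8. In simulated data with 200 of 681 probes changed by 1 on the log2 scale, 99% were recovered in the comparison at P4 and 95.5% in that at E17. This change is larger than any normalized difference of a member, and the scaling was not simulated. These figures therefore do not give the power to find differences of the members' size. Probe signals depend on probe sequence, so levels of different miRNAs were not compared. The number of arrays limits the precision. Alternatives covered the signal, scaling, filter, limits, test, arrays in the fit, weights, replicate block, rule for several probes and spots, and each array left out in turn. Mature sequences and hairpin positions came from RefSeq.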

Additional observations from a re-analysis of the deposited data

Results flagged for a closer look

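In the P4 mutants, replicate 2 stood apart for miR-335-3p, with a normalized log2 signal of 6.28 against 6.14 to 6.16 in the other 3 arrays. No probe of this miRNA was well above background there. In the E17 mutants, replicate 3 stood apart for miR-675-3p, with 6.41 against 6.57 to 6.60, and its probe was not well above background on that array. Both were found by the gap to the nearest array as a part of the range within groups of 4, in 20 groups tested, of which chance marks about 1 in 20. The causes were not tested.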

How the results depend on the processing

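Across the alternatives, the sign of the miR-335-5p difference between the genotypes remained in all 17 at each age, and its calls remained in all 16 fits that left out an array, with log2 differences of 0.55 to 0.69 at P4 and 0.58 to 0.73 at E17. Part of this was fixed in advance. Changing the filter, the limits, the test, the arrays in the fit or the replicate block cannot move this log2 difference. Leaving out an array of the other age cannot move it either. The calls were lost at P4 and E17, respectively, without normalization (0.013 and 0.51), with the 75th percentile of all probes (0.12 and 0.24), with normexp background correction (0.47 and 0.50, an alternative chosen after seeing the data), with a limit of 1 (0.61 and 0.63) and with the mean over both probes (0.39 and 0.38). The age difference of miR-335-5p turned to 0.83 in controls and 0.33 in mutants without normalization, and to 0.45 and 0.34 with the 75th percentile of all probes. Its difference of genotype differences turned to 0.26 with the 75th percentile of detected probes, 0.19 with background-subtracted signals, 0.0053 with array weights and 0.0055 with the mean over probes, and ran from -0.12 to 0.059 as arrays were left out, above 0 in 5 of the 16 such fits (without replicates 1 or 3 of the E17 controls, replicate 3 of the E17 mutants, replicate 4 of the P4 controls or replicate 3 of the P4 mutants).

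Member probes called at P4 were 0 without normalization, with the 75th percentile of all probes, with normexp and with a limit of 1, and 16, 12 and 8 with the 75th percentile of detected probes, background-subtracted signals and no limit. At E17 the member probes called were 0 in the 4 settings with 0 at P4 (11, 31, 14 and 0 of all probes). They were 5 with background-subtracted signals (86 of all probes) and 4 with no limit (70). With age in controls they were 15 and 11 with the 75th percentile of detected probes and background-subtracted signals (510 and 273 of all probes). They were 0 with the 75th percentile of all probes, normexp and a limit of 1 (168, 55 and 19), and 6 with no limit (274). As arrays were left out they were 0 to 1 (0 without replicate 4 of the E17 controls). In mutants they were 3, 2 and 1 with the 75th percentile of detected probes, background-subtracted signals and no limit (118, 176 and 193 of all probes). For the difference of genotype differences they were 5 in each of the former 2 settings (120 and 168 of all probes).

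Signs of small differences also turned. Without normalization miR-483 and miR-675-3p had age differences of 0.037 and 0.34 in controls, and differences of genotype differences of -0.050 (miR-483), -0.14 (miR-483*) and -0.23 (miR-675-3p). With the 75th percentile of all probes miR-483 had -0.056 at E17 and 0.00072 with age in mutants, and with the mean over probes -0.0077 at E17. The age difference of miR-675-3p in mutants was -0.30 with the 75th percentile of detected probes, -0.0153 with background-subtracted signals and -0.0147 with the deposited intensities. As log2 shares of the sum, miR-335-5p differed by 1.00 at P4, 0.77 at E17, -0.46 with age in controls and -0.22 with age in mutants, miR-483 by 0.054 at E17, and miR-675-3p by -1.04 with age in controls and -0.22 in mutants.

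Counts over all probes moved as well, from 99 at P4, 19 at E17, 87 with age in controls, 48 with age in mutants and 45 for the difference of genotype differences. They were 157, 11, 289 (higher, with 10 lower), 106 and 146 without normalization, 530, 43, 510, 118 and 120 with the 75th percentile of detected probes, 131 (lower, with 2 higher), 31, 168, 107 and 79 with that of all probes, 320, 86, 273, 176 and 168 with background-subtracted signals, 61, 14, 55, 36 and 29 with normexp, 21, 0, 19, 11 and 12 with a limit of 1, and 148 (higher, with 150 lower), 70, 274, 193 and 100 with no limit. By the mean over probes, 46, 10, 37, 23 and 21 miRNAs were called. At E17 the count was also 12 without the filter, 33 by the methods' t-test at an unadjusted p, 34 with array weights, and 9, 12 and 30 without replicates 1, 2 and 4 of the E17 controls. For the difference of genotype differences it was 90 with array weights and 68 without replicate 3 of the P4 mutants. Apart from settings whose construction sets the count, the causes were not tested.

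The replicate block left the log2 differences of miR-335-5p at 0.61 at P4 (limma adjusted p = 0.000343) and 0.63 at E17 (limma adjusted p = 0.00341) and changed no call of a member. Samples with the same number did not deviate together (r from -0.61 to 0.44), and the labels do not say that a number marks a litter, so the numbers were not taken as pairs. The planned normexp correction of the mean signal was not run, because the files used here hold the median signal. No probe of miR-335-3p or miR-675-5p was well above background on any array. The small shifts of the miR-335-3p probes at P4 (log2 differences of at most 0.09) were therefore not read as differences in level. miR-675-5p was not tested.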
